A study of Mus musculus with 6 samples.

Results

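Tight junctions are belts of membrane proteins that seal the space between neighbouring epithelial cells. Claudins, small proteins with 4 membrane spans, form their strands and set which ions pass between the cells, while occludin, tricellulin and the angulins shape the strands and the points where 3 cells meet. Scaffold proteins such as ZO-1 and cingulin tie the strands to the actin cytoskeleton, and junctional adhesion molecules (JAMs) line the same contacts. In the inner ear these junctions hold potassium-rich endolymph apart from the fluid at the base of the hair cells, and loss of the function of claudin-9, claudin-11, claudin-14, occludin, tricellulin (Marveld2) or Ildr1 causes deafness in mice.

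A list of 32 such genes, of the 39179 genes in the count files, was followed: 19 claudins, 3 genes of the occludin family, 3 angulins, 4 scaffold or cingulin genes and 3 JAMs. All 32 symbols were found by their Ensembl identifiers. The samples were the cochlear sensory epithelium, from the hearing organ, and the vestibular sensory epithelium, from the balance organs, of untreated wild-type C57Bl/6J mice at postnatal day 0, pooled from both sexes. RNA came from 20 inner ears, and 3 stranded mRNA libraries were sequenced from each tissue. The labels do not say whether the 3 libraries of a tissue came from separate dissections, so p-values may measure only technical spread.

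Levels are given below as CPM, the count of a gene relative to all gene counts of its library, scaled by the TMM factor that edgeR computes to make libraries comparable. Gene counts per library were 24464483 to 29225105 in the cochlea and 25476572 to 33664793 in the vestibule, so 1 CPM stood for 24.5 to 33.7 counts before scaling. Differences are log2 fold changes, vestibule minus cochlea, with their standard error (SE), and a gene was called where edgeR's quasi-likelihood test gave a Benjamini-Hochberg adjusted p under 0.05 over all 14723 genes tested. In these bulk samples, fewer cells of a type and less RNA per cell cannot be told apart.

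The sequence that marks the claudin family stood in all 19 claudins on the list. It lies in the first extracellular loop, where most members have a glycine, a leucine and a tryptophan followed by a pair of cysteines. The stretches below are reading-strand coding bases from GENCODE vM21 transcripts (GRCm38), with the codons of those 5 residues in capitals. They are shown for the closest pairs of claudins, for Cldn8 and Cldn11, which were abundant and differed between the tissues, and for Cldn14, which was higher in the cochlea.
Cldn3: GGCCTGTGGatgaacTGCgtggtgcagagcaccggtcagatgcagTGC
Cldn4: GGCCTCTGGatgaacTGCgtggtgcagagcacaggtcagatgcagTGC
Cldn6: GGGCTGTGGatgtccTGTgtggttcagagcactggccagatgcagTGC
Cldn9: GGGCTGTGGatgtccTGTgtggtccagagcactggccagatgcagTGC
Cldn8: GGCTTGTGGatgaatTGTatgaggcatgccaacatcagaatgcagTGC
Cldn11: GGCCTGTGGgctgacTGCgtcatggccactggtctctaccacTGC
Cldn14: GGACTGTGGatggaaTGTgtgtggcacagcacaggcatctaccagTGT
Cldn22: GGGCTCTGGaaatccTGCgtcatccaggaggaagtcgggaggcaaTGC
Cldn24: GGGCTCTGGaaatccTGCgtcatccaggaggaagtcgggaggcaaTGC

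The most alike claudins are neighbours in the genome. Cldn6 (chr17:23679249-23682446) and Cldn9 (chr17:23682584-23684026) stand tail to tail 137 bases apart, with 73.6% of aligned coding bases identical. Cldn3 (chr5:134986214-134987472) and Cldn4 (chr5:134945119-134946934) are 39279 bases apart and 70.3% identical. Their longest shared runs, 37 and 35 bases, are shorter than the 100-base reads. Cldn22 (chr8:47824482-47825476) and Cldn24 (chr8:47822143-47822805, not on the list) are 90.7% identical with a shared run of 472 bases. The stretches printed for them do not differ. Reads that lie wholly within the shared run cannot be told apart, so both counts are uncertain.

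Of the 32 genes, 28 reached at least 1 CPM in 3 or more libraries and were tested. The 4 others were claudins. Cldn16, a claudin of the kidney's magnesium pathway, and Cldn18, known from lung and stomach, had no counts in any library, which allows up to 0.0364 CPM over the cochlear and 0.0354 CPM over the vestibular libraries (3 counts in each tissue, counting error only). Cldn15, a cation pore of the gut, had between 1 and 11 counts per library, and Cldn20 between 3 and 14.

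Most of the tight junction genes that differed were higher in the vestibule. There 14 of the 28 tested genes were called, where 15.8% of all genes tested were. Cldn14 was the 1 gene called higher in the cochlea, where 11.6% of all genes tested were. With library size as the only scaling these counts were 17 and 1, beside 2754 and 1251 genes of all tested against 2325 and 1711 with TMM. All 3 vestibular libraries lay above all 3 cochlear ones for 17 of the 28 genes, against 22.3% of all genes. The median log2 fold change of the 28 genes was 0.67, and that of all genes tested was 0.0048. Cldn2 and Cldn10 reached 1 CPM in the vestibular libraries alone, and so had to differ to be tested; without both, 12 of 26 genes were called higher in the vestibule and the median was 0.52.

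**Figure D1:**
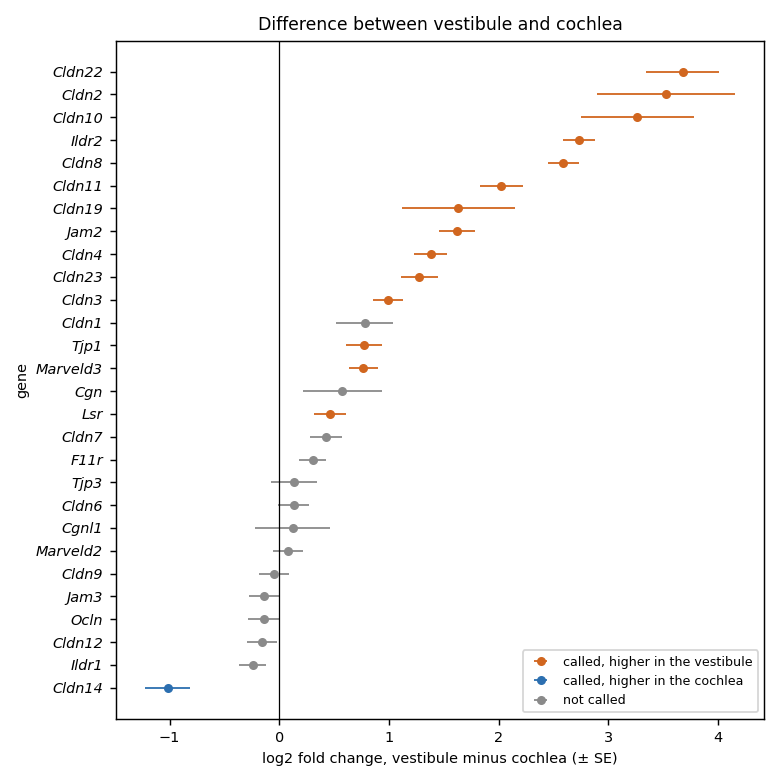
Log2 fold change (x axis, vestibule minus cochlea) of the 28 tested genes, with bars of 1 SE from edgeR's fit over 3 libraries per tissue; colour gives the call at an adjusted p under 0.05. Values run from -1.02 for Cldn14 to 3.68 for Cldn22, with 14 genes called on the vestibular side and 1 on the cochlear side.

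Among the 15 claudins tested, 9 (60%) were called higher in the vestibule, 1 (6.67%) higher in the cochlea and 5 were not called. Of all genes tested, 15.8% were called higher in the vestibule and 11.6% higher in the cochlea. The 9 include Cldn2 and Cldn10, which had to differ to be tested. Cldn8, known from the distal nephron (chr16:88560828-88563183, a single exon), had 30.7, 28.8 and 25.4 CPM in cochlear libraries 1, 2 and 3 and 183, 153 and 175 CPM in the vestibular ones. The tissues were far apart and the libraries within each close together. Its log2 fold change was 2.59 (SE 0.14, adjusted p = 5.93e-06), a 6.02-fold higher level in the vestibule.

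Cldn11 (chr3:31149920-31164324) forms the junctions of the basal cells of the stria vascularis and of myelin. It had 72.4, 50.2 and 62.0 CPM in the cochlear and 201, 250 and 301 CPM in the vestibular libraries, which did not overlap. The log2 fold change was 2.03 (SE 0.19, adjusted p = 0.000121).

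Cldn3 and Cldn4, neighbours on chromosome 5, are barrier claudins that also bind a clostridial enterotoxin. Cldn3 had 80.5, 95.03 and 82.7 CPM in the cochlea against 149, 174 and 191 CPM in the vestibule. Cldn4 had 49.1, 65.3 and 51.3 CPM against 146, 132 and 154 CPM. The groups did not overlap for either gene, with log2 fold changes of 0.99 (SE 0.14, adjusted p = 0.000925) for Cldn3 and 1.38 (SE 0.15, adjusted p = 0.000218) for Cldn4.

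Several claudins of low level in the cochlea were also higher in the vestibule. Cldn23 had 10.5, 8.75 and 8.65 CPM in the cochlear libraries and 26.5, 20.3 and 20.8 CPM in the vestibular ones, a log2 fold change of 1.28 (SE 0.17, adjusted p = 0.000695). Cldn2, a cation and water pore, had 0.209, 0.377 and 0.628 CPM against 2.82, 2.44 and 9.20 CPM, and Cldn10, an ion-selective claudin with anion and cation isoforms, had 0.878, 0.603 and 0.523 CPM against 3.20, 4.81 and 11.3 CPM. In both, vestibular library 3 was the highest and no library of the other tissue came near the lowest vestibular one. The log2 fold changes were 3.53 (SE 0.63, adjusted p = 0.00332) for Cldn2 and 3.27 (SE 0.51, adjusted p = 0.00164) for Cldn10, with as few as 5 cochlear counts in a library for Cldn2 and 15 for Cldn10.

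Cldn22, for which the limit on its count given above holds, had 1.76, 1.21 and 0.767 CPM in the cochlear and 13.7, 20.6 and 13.1 CPM in the vestibular libraries, with a log2 fold change of 3.68 (SE 0.33, adjusted p = 8.68e-05). Its near-identical neighbour Cldn24 had 0.753, 0.603 and 0.698 CPM against 8.53, 9.06 and 7.62 CPM, a log2 fold change of 3.61 (SE 0.23, adjusted p = 1.3e-05). Like Cldn2 and Cldn10, Cldn24 reached 1 CPM in the vestibular libraries alone, and so had to differ to be tested. The single exon of Cldn22 also lies wholly (100% of its 995 bases) within an exon of Wwc2 on the opposite strand, which had 84.1 to 96.8 CPM in the cochlea and 88.8 to 105 CPM in the vestibule and was not called (log2 fold change 0.09, SE 0.13, adjusted p = 0.646). The kit marked the strand, but the strand setting of the counting was not given in the sources used here.

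Cldn19, which works with claudin-16 in the kidney and is also found in Schwann cells, was called close to the threshold. Its cochlear libraries had 14.8, 2.87 and 4.74 CPM and its vestibular libraries 21.7, 18.8 and 28.8 CPM, so cochlear library 1 stood well above the other two and still under the lowest vestibular one. The log2 fold change was 1.63 (SE 0.52, adjusted p = 0.046). The call was lost when any library other than cochlear library 1 was left out, and without that library the log2 fold change was 2.59. Of the 5 Schwann cell markers, 2 were called higher in the vestibule, none was at 0, and their summed level was 679 to 785 CPM in the cochlea and 1031 to 1342 CPM in the vestibule. Their part in the result was not tested.

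Cldn14 (chr16:93919031-94008837), found at the junctions of hair cells and supporting cells, went the other way. It had 9.37, 9.39 and 11.3 CPM in the cochlear libraries and 4.13, 4.77 and 5.99 CPM in the vestibular ones, so every cochlear library lay above every vestibular one. The log2 fold change was -1.02 (SE 0.21, adjusted p = 0.00641), a 2.02-fold higher level in the cochlea. This call was made under each of the alternatives tried. Beside it, 4 of 5 supporting cell markers were called higher in the cochlea, among them Sox2 (log2 fold change -0.60) and the Notch ligand Jag1 (-1.50), with a summed level of 550 to 676 CPM against 273 to 294 CPM in the vestibule. Of 7 hair cell markers, 3 were called higher in the vestibule, with sums of 574 to 792 CPM in the cochlea and 952 to 1151 CPM in the vestibule. The log2 fold change was above 0 for 5 of the 7 and was -0.35 for Myo6, which was not called. Otof, named after its values were seen, had 54.8, 110.5 and 97.4 CPM in the cochlear libraries. It had 488, 315 and 310 CPM in the vestibular ones, a large part of the difference in the sums. No gene of either list was at 0, and the part of these cells in the result was not tested.

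The 5 claudins that were not called included the pair on chromosome 17. Cldn9 had 177, 163 and 137 CPM in the cochlear and 146, 151 and 165 CPM in the vestibular libraries, which overlapped, with a log2 fold change of -0.05 and a 95% interval from -0.35 to 0.26. Cldn6, a claudin of embryonic epithelia, had 89.9, 99.2 and 97.2 CPM against 89.6, 105 and 119 CPM and an interval from -0.18 to 0.44. The interval for Cldn12 ran from -0.46 to 0.15. A difference of 2-fold, 1 on the log2 scale, lay outside all 3 intervals.

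Cldn1, the main barrier claudin of skin, and Cldn7 just missed the threshold. Cldn1 had 4.98, 5.50 and 3.91 CPM in the cochlea and 9.52, 5.51 and 9.60 CPM in the vestibule, where the lowest vestibular value all but met the highest cochlear one. Cldn7 had 48.1, 49.0 and 57.3 CPM against 58.8, 73.5 and 75.2 CPM. Their log2 fold changes were 0.78 (SE 0.26, adjusted p = 0.0587) and 0.42 (SE 0.14, adjusted p = 0.0579).

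**Figure D2:**
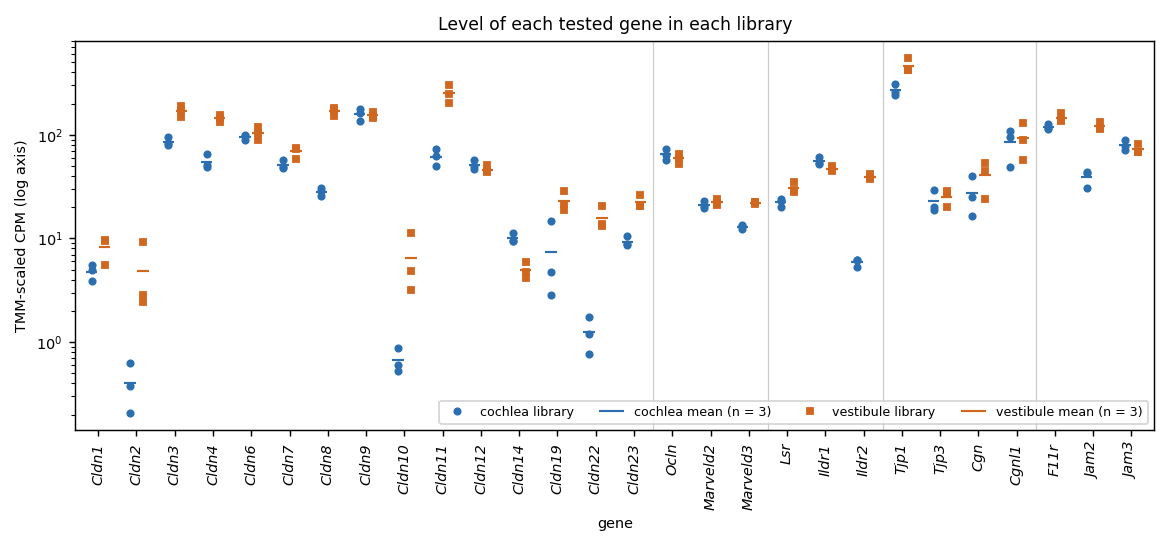
TMM-scaled CPM on a log axis (y) of the 28 tested genes (x), grouped by claudins, occludin family, angulins, scaffolds and cingulins, and JAMs; each point is 1 library and each line the mean of 3. Cldn8, Cldn11, Ildr2 and Jam2 show vestibular libraries well above the cochlear ones, Cldn14 shows the reverse, and the points of Cldn9, Ocln and Marveld2 intermingle.

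The make-up of the listed claudins, per length, differed between the tissues. Levels of different genes can be compared only per length, so the deposited log2 RPKM values (counts scaled by gene length and library size) were returned to the linear scale and summed over the 15 claudins on the list that they hold. Cldn5 and Cldn24, not on the list, were left out of these sums and shares, and the log2 RPKM of Cldn5, 3.67 in the cochlea and 4.99 in the vestibule, stood above that of Cldn12 (3.56 and 3.53). The sums were 374, 351 and 346 RPKM in cochlear libraries 1, 2 and 3 and 682, 714 and 755 RPKM in the vestibular ones. Cldn9 made up 29.6% ± 2.56 (SD, n = 3) of the cochlear sum and 15.5% ± 0.587 of the vestibular sum, although its own level was close in both. Cldn11 made up 8.996% ± 1.63 and 19.6% ± 2.04, and Cldn8 3.23% ± 0.179 and 10.6% ± 1.55. Cldn3 held 18.4% ± 1.55 and 19.7% ± 0.789. These shares are descriptions, since the share of a gene falls wherever the others gain.

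In order of log2 RPKM among the listed claudins, the cochlea had Cldn9 first (6.72 ± 0.18, SD, n = 3), then Cldn3 (6.03 ± 0.08) and Cldn6 (5.93 ± 0.06), of which the last 2 overlapped between libraries, and then Cldn11, Cldn4 and Cldn7, where each neighbouring pair with Cldn4 overlapped. In the vestibule Cldn3 (7.14 ± 0.12) and Cldn11 (7.13 ± 0.22) came first and overlapped, above Cldn9 (6.80 ± 0.02), and Cldn4, Cldn8 and Cldn6 followed with overlapping neighbours. Among the 14722 genes of that matrix, Cldn8 stood above 67.9% of genes in the cochlea and above 95.8% in the vestibule.

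**Figure D3:**
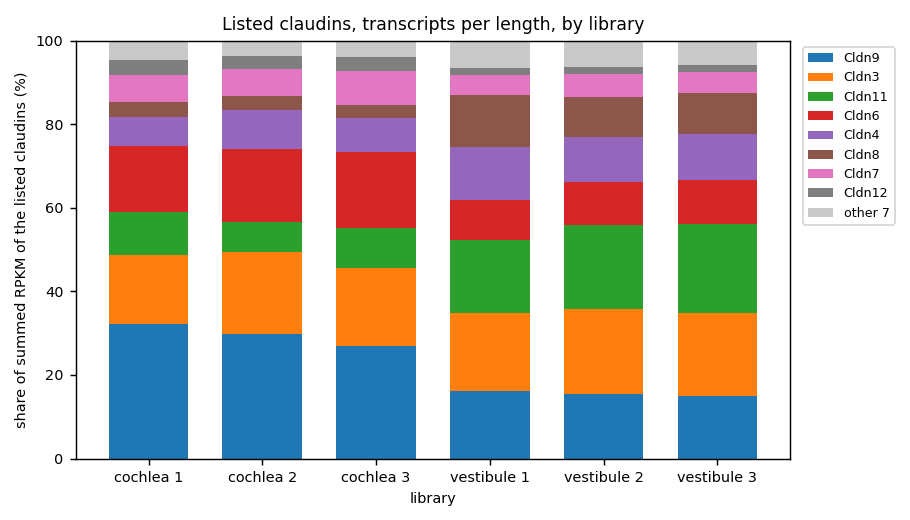
Share of the summed RPKM of the 15 listed claudins (y axis, percent) in each of the 6 libraries (x axis); the 8 claudins with the largest shares have a colour each and the other 7 are in light grey. Cldn9 takes 27.0% to 32.1% of the cochlear bars and 14.96% to 16.1% of the vestibular ones, while the bands of Cldn11 and Cldn8 are wider in all 3 vestibular bars.

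Of the occludin family, 1 of 3 genes was called. Marveld3 had 12.2, 13.6 and 13.3 CPM in the cochlear and 22.6, 21.5 and 22.4 CPM in the vestibular libraries, without overlap, and a log2 fold change of 0.77 (SE 0.13, adjusted p = 0.00282). Ocln, occludin itself, had 57.5 to 73.6 CPM in the cochlea and 52.7 to 64.9 CPM in the vestibule, and Marveld2, which gathers at 3-cell contacts, 19.6 to 23.2 and 21.1 to 23.9 CPM. Libraries overlapped for both. The 95% intervals of their log2 fold changes were -0.46 to 0.18 for Ocln and -0.23 to 0.39 for Marveld2.

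The angulins recruit tricellulin to 3-cell contacts, and 2 of the 3 were called. Ildr2 (chr1:166254139-166316823) had 6.19, 5.28 and 6.14 CPM in the cochlear and 38.3, 41.6 and 37.3 CPM in the vestibular libraries, with every vestibular value far above every cochlear one. Its log2 fold change was 2.73 (SE 0.14, adjusted p = 5.79e-06), a 6.65-fold higher level, and 11.04% of its exon bases are shared with an antisense transcript. Lsr, the angulin of most epithelia, had 20.3, 24.3 and 22.9 CPM against 29.4, 28.4 and 35.1 CPM, a log2 fold change of 0.46 (SE 0.14, adjusted p = 0.0448). The Lsr call was lost when any 1 library was left out (adjusted p 0.0605 to 0.149), and 43.6% of its exon bases are shared with an antisense gene. Ildr1 had 53.6, 61.6 and 52.2 CPM against 46.9, 45.0 and 49.7 CPM; the groups did not overlap, and the log2 fold change of -0.24 (SE 0.12) did not pass the test (adjusted p = 0.184).

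Promoter windows from RefSeq (GRCm38.p6), 250 bases before to 50 after each start, were found for 26 of the 32 genes, 37 windows in all because some genes have several that overlap. The E-box letters CACCTG, to which the Snail and Zeb repressors of epithelial genes can bind, were searched on both strands and stood in 15 of the 37 windows (40.5%), in 12 of the 26 genes, against 20.2% of all 32851 windows. The GC box GGGCGG, searched the same way, stood in 62.2% against 35.7%. The TATA box letters TATAAA stood in 8.11% against 13.6%, and neither AACCGGTT, a grainyhead motif, nor TCAAGGTCA, a motif of estrogen-related receptors, stood in any of the 37, against 0.146% and 0.423% of all windows. A match describes letters and not a bound site. The stretches around the E-box are shown for Lsr and Ildr2, both called higher in the vestibule, and for Cldn14, called higher in the cochlea, 5′ to 3′ on the strand of the gene with the motif in capitals.
Lsr, chr7:30973516-30973555, minus strand: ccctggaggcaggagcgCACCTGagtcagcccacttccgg
Ildr2, chr1:166253906-166253945, plus strand: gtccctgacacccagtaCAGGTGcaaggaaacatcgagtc
Cldn14, chr16:93929826-93929865, minus strand: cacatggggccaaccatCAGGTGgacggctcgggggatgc
The motif ends 63, 210 and 25 bases before the start in these windows. The Cldn14 window belongs to a start inside the span of the gene (chr16:93919031-94008837), and whether that start was used here was not tested. Genes called in either direction held the motif, as did genes that were not called, among them Cldn6 and Ocln.

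Among the scaffolds, Tjp1 was called. It encodes ZO-1, which anchors claudins to actin, and had 244, 310 and 258 CPM in the cochlear and 546, 420 and 422 CPM in the vestibular libraries, without overlap. The log2 fold change was 0.77 (SE 0.16, adjusted p = 0.00753). Tjp3, encoding ZO-3, had 19.0 to 29.4 CPM in the cochlea and 20.0 to 28.4 CPM in the vestibule, with a 95% interval of its log2 fold change from -0.34 to 0.61.

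Cingulin and paracingulin, which link ZO proteins to actin and microtubules, varied widely within a tissue. Cgn had 16.4, 25.1 and 40.3 CPM in cochlear libraries 1, 2 and 3 and 52.9, 44.8 and 23.9 CPM in the vestibular ones, and Cgnl1 had 49.4, 95.2 and 110 CPM and 130, 89.1 and 57.4 CPM. Both ranges overlapped widely, and neither gene was called (Cgn 0.57, SE 0.36, adjusted p = 0.277; Cgnl1 0.12, SE 0.34, adjusted p = 0.826). The intervals were wide, from -0.25 to 1.39 for Cgn and from -0.66 to 0.90 for Cgnl1, so a 2-fold difference in Cgn was not outside what these libraries allow. Long transcripts as a class moved the same way between libraries: the median log2 deviation of 2647 genes with a mean of at least 1 CPM and over 8000 exon bases, minus that of 1899 genes under 2000, was -0.16, -0.08 and 0.25 in the cochlear libraries and 0.34, -0.01 and -0.31 in the vestibular ones. The exons of Cgn, Cgnl1 and Tjp1 cover 6021, 7844 and 7811 bases. Cgn and Cgnl1 followed the order of this trend in both tissues, whereas Tjp1 did not in the cochlea and in the vestibule was highest in library 1 with libraries 2 and 3 nearly level. Tjp3, with only 3714 exon bases, also followed the order in the cochlea (19.0, 20.1 and 29.4 CPM). In the vestibule it had 26.9, 28.4 and 20.0 CPM and was lowest in library 3. The part of the trend in their values was not tested.

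**Figure D4:**
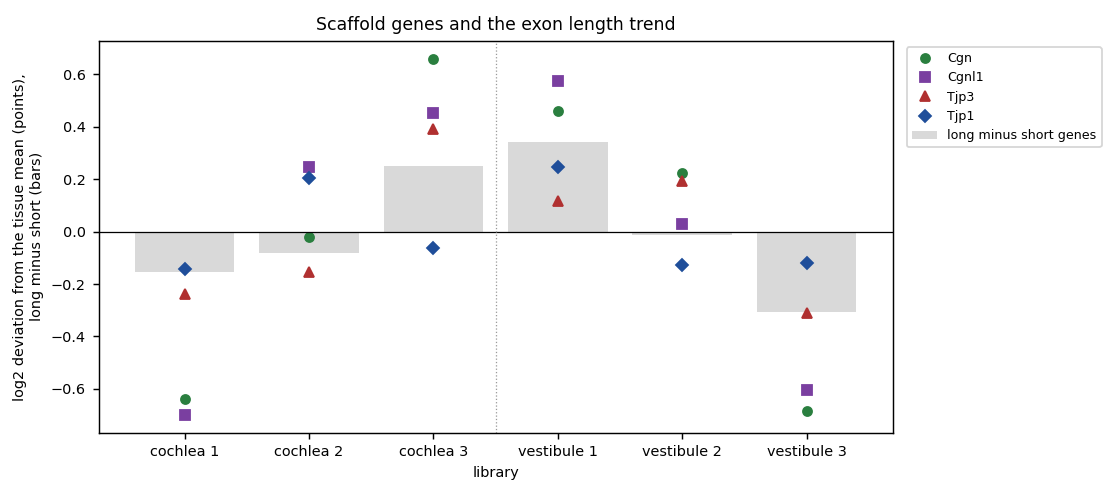
Points give the log2 deviation (y axis) of Cgn, Cgnl1, Tjp3 and Tjp1 from the mean of their tissue in each library (x axis); grey bars give the median deviation of all long genes (over 8000 exon bases) minus that of all short genes (under 2000). Cgn, Cgnl1, Tjp3 and the bars are lowest in cochlear library 1 and vestibular library 3 of each tissue, where the bars stand at -0.16 and -0.31. Tjp1 is lowest in cochlear library 1 but not in vestibular library 3.

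Of the JAMs, Jam2 was called. JAM-B, its product, is best known from endothelium and testis, and Jam2 had 43.7, 30.5 and 43.2 CPM in the cochlear and 133, 113 and 116 CPM in the vestibular libraries. No library overlapped between the tissues, and the log2 fold change was 1.62 (SE 0.17, adjusted p = 0.000177). F11r, encoding JAM-A of epithelia and platelets, had 115, 126 and 114 CPM against 137, 140 and 162 CPM; the groups did not overlap, but the log2 fold change of 0.30 (SE 0.12) did not pass the test (adjusted p = 0.107). Jam3 had 72.0 to 89.1 CPM in the cochlea and 67.9 to 80.8 CPM in the vestibule, with an interval from -0.45 to 0.17, and shares 36.2% of its exon bases with an antisense gene.

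Other genes of the junction, 34 in all, were followed as a second list. Of the 31 tested, 6 were called higher in the vestibule (19.4%, against 15.8% of all genes tested) and 3 higher in the cochlea (9.68% against 11.6%), shares near those of all genes. Cldn24 is among the 6. The median log2 fold change of the 31 was 0.16. Besides Cldn24, the vestibular side held Esam (1.61, SE 0.30), an adhesion molecule of endothelium, the angiomotin family gene Amotl2 (1.19, SE 0.20), Cldn5 (1.09, SE 0.35) and the scaffold Mpdz (0.88, SE 0.25). The remaining gene of the 6, named after its values were seen, was Tjap1 (0.75, SE 0.13, adjusted p = 0.00315). On the cochlear side stood the polarity genes Pard6g (-0.66, SE 0.14) and Pard6b (-0.53, SE 0.16) and Cxadr (-0.55, SE 0.12), an adhesion receptor of epithelia. The calls of all 3 were lost without vestibular library 2, and those of Mpdz and Pard6b also without cochlear library 1 or 2 or vestibular library 1 or 2; Pard6b lost its call with library size alone too (adjusted p = 0.0576).

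Cldn5 is the main claudin of blood vessels. It had 31.6, 10.9 and 19.1 CPM in the cochlear and 45.4, 33.4 and 52.1 CPM in the vestibular libraries, with cochlear library 1 just under vestibular library 2 (adjusted p = 0.0463). The call was lost when any library other than cochlear library 1 was left out. Of 6 endothelial markers, 4 were called higher in the vestibule, among them Pecam1 (1.77), Cdh5 (1.38) and Kdr (3.60), and 1 higher in the cochlea. The latter was Emcn (-1.80), named after its values were seen, with 125, 122 and 140 CPM in the cochlear and 37.1, 32.3 and 41.5 CPM in the vestibular libraries. The sum of the 6 was 192 to 233 CPM in the cochlea and 364 to 499 CPM in the vestibule, and none was at 0. The part of these cells in the values of Cldn5, Esam and Jam2 was not tested.

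Markers of other cells also differed between the dissected tissues. The 4 markers of strial marginal and vestibular dark cells, epithelia that secrete potassium, were all called higher in the vestibule, among them Kcne1 (2.93), Kcnq1 (1.61) and Bsnd (3.83), with sums of 45.8 to 52.7 CPM in the cochlea and 350 to 376 CPM in the vestibule. All 5 melanocyte markers (40.5 to 69.6 against 249 to 300 CPM) and all 5 macrophage markers (57.5 to 69.4 against 204 to 241 CPM) were called the same way, as were 4 of 7 mesenchyme markers (4094 to 4709 against 6973 to 7915 CPM), with 1 called the other way. Mlana of the melanocyte list, named after its values were seen, reached 1 CPM in the vestibular libraries alone, and so had to differ to be tested. Of 6 general epithelial markers, 4 were called higher in the vestibule, among them Epcam (0.67) and Krt8 (0.93), whereas Cdh1, encoding E-cadherin, was called higher in the cochlea (-0.94), and their sum was 1128 to 1352 CPM against 1502 to 1593 CPM. Of 4 neuronal markers, 2 were called higher in the cochlea (100 to 399 against 31.6 to 127 CPM). No gene of these lists was at 0 in a tissue, and the part of these cells in the claudin, angulin and JAM results was not tested.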

How the data were processed

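From each of the 2 epithelia, 3 RNA-seq libraries were sequenced (100-base paired reads). The authors aligned the reads with tophat2 (version 2.1.0 per the submitters' processing notes) to GRCm38, counted read pairs on Ensembl genes with HTSeq 0.5.4p5 and deposited the raw counts. The summary lines of each count file, 18.5% to 20.6% of all counts, stayed out of library sizes and tests. The authors also deposited log2 RPKM values, scaled by library size without TMM, which were used only for levels between genes.

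Libraries were grouped by their tissue labels. The filter kept genes at 1 CPM or above in at least 3 libraries, and the counts of these entered the quasi-likelihood test of edgeR 4.0.16 under R 4.3.3 (TMM factors 0.921 to 1.09, glmQLFTest, Benjamini-Hochberg, FDR 0.05, tissue as the only term), after a run on simulated data. The SE is the absolute log2 fold change over the square root of F, and 95% intervals use the t distribution with the degrees of freedom of the fit. Alternatives were other scalings and filters, DESeq2 1.42.0, limma-voom (limma 3.58.1), edgeR's exact test, a replicate block, a looser FDR (0.1) joined to a minimum fold change (1.3), and leaving out each library in turn. Every pair of libraries differed by more than sampling noise. Coordinates are those of GENCODE vM21 (GRCm38), not the annotation used for counting. All 32 listed genes are named; of the other junction genes, Cldn5 and up to 5 called in each direction with the largest change; of each marker list, at most its first 3. Some results under this rule are not reported here. Wwc2 was named after its position was seen, and Emcn, Mlana, Otof and Tjap1 after their values were. The members and lists were chosen with earlier results of these data known. Markers of skeletal muscle (5 genes, 2 tested, none called at an adjusted p under 0.05, and 1 at an unadjusted p under 0.05) were high in cochlear library 3 alone, and those of red blood cells (4 of 5 tested) were not called, with 0 at an unadjusted p under 0.05. The red blood cell sum was 338, 131 and 122.5 CPM in cochlear libraries 1, 2 and 3 and 205 to 262 CPM in the vestibule. Sequences were read from GENCODE vM21 transcripts and RefSeq promoters. Figures were drawn with matplotlib 3.10.9.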

Additional observations from a re-analysis of the deposited data

How the results depend on the processing

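The count of listed genes called higher in the vestibule was 13 to 17 under other scalings, filters, tests and thresholds, and 10 to 13 without 1 library, against 14. The count higher in the cochlea was 1 under each of them. Of the 15 called genes, 13 kept their call and direction under every alternative in which they were fitted; Cldn2 and Cldn10 could not be fitted without a vestibular library. Cldn19 lost its call with DESeq2 (adjusted p = 0.0685), and Lsr with RLE size factors (0.0527), with no filter (0.0726) and with the replicate block (0.132). Library size alone moved the median of all genes to 0.13, and there Cldn1, Cldn7 and F11r passed the threshold; Cldn1 did so also with DESeq2, the exact test, no filter and without vestibular library 2, and Cldn7 without cochlear library 3 or vestibular library 1. Values near 0 changed sign: Cldn9 stood at 0.071 with library size alone and at -0.15 to 0.031 without 1 library, and Cgnl1 at -0.19 to 0.39 without 1 library. The cause was not tested. Of the second list, 0 genes were called higher in the cochlea with the replicate block (edgeR; 3 without it; adjusted p = 0.0516 for Pard6g, 0.113 for Pard6b and 0.0666 for Cxadr), where Mpdz also lost its call (0.0974), 0 to 3 without 1 library, and 3 to 8 higher in the vestibule without 1 library (3 without vestibular library 1 or 2; Cldn24 could not be fitted without a vestibular library); leaving out vestibular library 2 ended the calls of Pard6g, Pard6b, Cxadr, Cldn5 and Mpdz. The replicate block left 13 listed genes higher in the vestibule. Deviations of libraries of the same number had r = -0.23, -0.29 and -0.52. With 3 libraries per tissue and the exon length trend within them, these values cannot show whether the numbers pair the samples. The 1 CPM filter kept Cldn15 and Cldn20 out of the test, and Cldn16 and Cldn18 had no counts.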
